A study of Mus musculus with 12 samples.

Results

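The myelin and oligodendrocyte lineage genes analysed here are 33 genes, chosen by name from the 21154 gene names on the array. All 33 had probes, 57 in all, so that 18 genes had more than 1 probe and 15 had 1. They fall into 23 genes of mature, myelinating oligodendrocytes, 6 genes of precursors and newly committed cells, and 4 transcription factor genes used by the whole lineage. The study compared whole cerebellum and entire hippocampus of En2-/- mice, which lack the homeobox gene En2, with those of their WT littermates. The 4 groups were WT cerebellum, En2-/- cerebellum, WT hippocampus and En2-/- hippocampus, with 3 single-colour Agilent arrays each. The mice were adults of both sexes, 3 to 5 months old, and came from heterozygous matings. The En2-/- mice carried the En2tm1Alj allele, which came from a stock of 129Sv and C57BL/6 mice with an outbred share and had been backcrossed to C57BL/6 at least 5 times, so that WT and En2-/- mice shared that history. The mutants carry the allele in every cell from conception. The labels do not tie the cerebellum of a mouse to a hippocampus.

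Oligodendrocytes arise from dividing precursors that depend on platelet-derived growth factor, and pass through a short committed stage before they wrap axons in myelin, the lipid-rich sheath that speeds conduction. The transcription factors Olig2 and Sox10 act throughout the lineage, the precursors carry the receptor Pdgfra and the proteoglycan Cspg4, and the mature cells make sheath proteins such as Mbp and Mog together with the enzymes for galactolipids. The cerebellum holds a large white matter core and the hippocampus thinner fibre layers, and precursors stay in both throughout adult life.

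Of the 43379 spots per array that were not controls, 62.3% to 73% were well above background, and the median signal was 5.72 to 10.4 times the local background. No spot was saturated. Levels below are log2 intensities after quantile normalization over the 12 arrays, and for each gene the probe with the highest mean stands for it, so that a level is compared only with other arrays of the same gene. Differences are on the log2 scale, and SD and n = 3 refer to the arrays of a group. The En2 probe lies outside the deleted part of the gene, so that it checks the region labels but not the genotype labels. Its levels were 13.80 to 14.61 on the WT and 14.08 to 14.81 on the En2-/- cerebellum arrays, and 7.04 to 8.14 on the hippocampus arrays. The arrays of 3 samples stood apart from their groups. On WT cerebellum replicate 3, the mature genes lay at -0.04 as a mean deviation from each gene's mean over the 12 arrays, against 0.39 and 0.46 on the other WT cerebellum arrays. On En2-/- hippocampus replicate 1 they lay at -0.01, against -0.58 and -0.42 on the others. The same array and En2-/- hippocampus replicate 2 lay farthest apart in choroid plexus genes, at 1.88 and -2.29.

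The 3 sequences below are the 250 bases before the annotated start of Gjc3 and Mobp, both higher in cerebellum and Gjc3 also higher in the mutants, and of Cspg4, lower in cerebellum. Capitals mark the core letters bound by Sox proteins, ACAAAG or ACAATG on either strand (CTTTGT or CATTGT as read), a group that includes Sox10, the activator of myelin genes. The sequences are from RefSeq on GRCm38.p6, which held a promoter for 24 of the 33 genes.
Gjc3 (chr5:137963099-137963348, minus strand): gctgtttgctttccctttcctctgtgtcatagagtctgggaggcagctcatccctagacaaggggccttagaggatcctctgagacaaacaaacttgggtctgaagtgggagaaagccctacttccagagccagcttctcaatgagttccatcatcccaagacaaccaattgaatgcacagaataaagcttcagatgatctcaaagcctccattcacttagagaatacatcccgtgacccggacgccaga
Mobp (chr9:120149492-120149741, plus strand): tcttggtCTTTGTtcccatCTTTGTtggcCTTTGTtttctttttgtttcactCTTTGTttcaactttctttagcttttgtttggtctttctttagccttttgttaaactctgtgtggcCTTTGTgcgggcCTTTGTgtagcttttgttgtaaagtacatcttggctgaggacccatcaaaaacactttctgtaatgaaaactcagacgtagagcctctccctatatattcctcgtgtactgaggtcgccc
Cspg4 (chr9:56864854-56865103, plus strand): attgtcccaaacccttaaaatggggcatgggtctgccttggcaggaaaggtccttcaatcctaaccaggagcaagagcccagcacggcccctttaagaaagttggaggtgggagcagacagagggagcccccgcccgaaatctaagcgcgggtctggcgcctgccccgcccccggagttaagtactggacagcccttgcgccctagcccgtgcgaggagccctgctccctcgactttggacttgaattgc
The Mobp window held 6 matches, all as CTTTGT, and the Gjc3 and Cspg4 windows held none. Of all 32851 promoters of the same length, 25.2% held at least 1 match, and Mobp was the single one with 6 or more. Among the first promoters of the 24 genes 8 held a match (33.3%). A match in these letters is not a binding site.

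The first comparison asked how the genes differ between the regions in WT mice. In WT mice, 9 of the 32 genes tested were higher in cerebellum and 2 lower by limma at a Benjamini-Hochberg adjusted p under 0.05, against 17.4% and 15% of all 15674 genes tested. Of the 9, 8 were mature genes, led by Trf, Gjc3 and Mobp, and the precursor gene Nkx2-2 was the other. The 2 lower genes, Pdgfra and Cspg4, are the textbook precursor markers. The 23 mature genes had a median difference of 0.57, with 21 of them above 0, while the median over all genes tested was 0.07. The 5 precursor genes tested had a median of -0.14 and ranged from -0.88 to 0.65. In whole tissue, fewer cells of a type and less RNA per cell cannot be told apart. The arrays of the 2 regions did not overlap for 13 genes higher in cerebellum and 2 lower, while 24.5% and 20% of all genes did so.

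**Figure D1:**
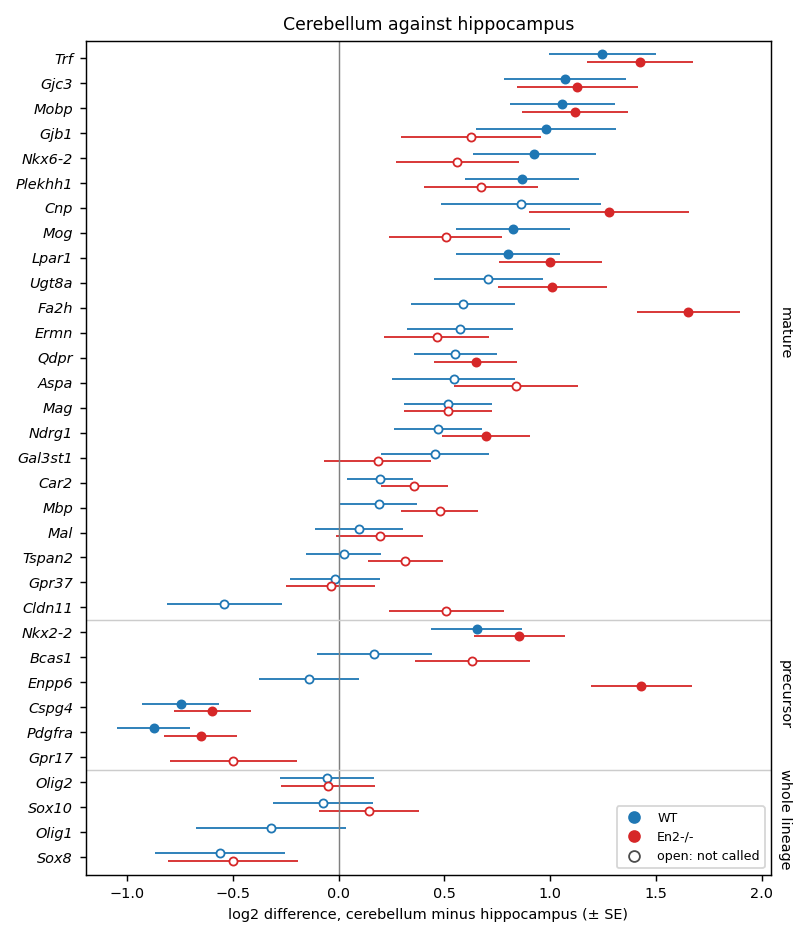
Difference between cerebellum and hippocampus of the 33 genes on the log2 scale (points, bars ± SE from limma), in WT (blue) and En2-/- mice (red), with filled points at an adjusted p under 0.05. Nearly all mature genes lie above 0, while Pdgfra and Cspg4 lie below 0 in both genotypes. Gpr17 was not tested in WT and Olig1 not in En2-/- mice.

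Trf, which encodes the iron carrier transferrin, had the highest difference between the regions in WT mice. Its levels were 14.40, 14.41 and 13.59 on the WT cerebellum arrays and 13.11, 12.64 and 12.92 on the WT hippocampus arrays. The cerebellum arrays were all above the hippocampus arrays, and the difference was 1.25 ± 0.25 (SE), 2.37-fold (limma adjusted p = 0.00254). Choroid plexus cells also make transferrin, and all 8 choroid plexus markers measured lay lower in WT cerebellum, with a median difference of -1.02. In En2-/- mice, where Trf was also higher in cerebellum, 5 of the 8 lay above 0, with a median of 0.50.

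Among the sheath proteins, Mobp and Mog passed the test in WT mice. Mobp encodes a basic protein of compact myelin, and its levels were 15.01, 15.05 and 14.63 in WT cerebellum and 13.73, 13.79 and 14.00 in WT hippocampus. The groups did not overlap, and the difference was 1.06 ± 0.25 (SE, limma adjusted p = 0.0065). Mog encodes a glycoprotein on the outer face of the sheath, and its levels were 10.55, 10.69 and 9.91 against 9.74, 9.24 and 9.69. Its lowest cerebellum array, replicate 3, was just above the highest hippocampus array, and the difference was 0.83 ± 0.27 (SE, limma adjusted p = 0.0338). A second Mog probe, also well above background on all arrays, gave -0.25, the mean of both gave 0.29, and the call was lost under 9 of 21 alternatives.

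Mbp, which holds the cytoplasmic faces of the sheath together, had levels of 16.74, 16.75 and 16.14 in WT cerebellum and 16.32, 16.45 and 16.29 in WT hippocampus. The groups overlapped through cerebellum replicate 3, and the difference was 0.19 ± 0.18 (SE, limma adjusted p = 0.459). Mag, an adhesion protein of the innermost myelin layer, had levels of 16.15, 16.12 and 15.84 against 15.58, 15.66 and 15.31. These did not overlap, but the difference of 0.52 ± 0.21 (SE) did not pass the test (limma adjusted p = 0.0767). Cnp, an enzyme of the non-compact sheath, had levels of 14.82, 15.00 and 13.53 against 13.77, 13.08 and 13.91. Its cerebellum replicate 3 fell among the hippocampus arrays, and the difference was 0.86 ± 0.38 (SE, limma adjusted p = 0.102). The other sheath proteins were Ermn, a cytoskeletal protein, at 0.57, Mal, a proteolipid of lipid rafts, at 0.10, Tspan2, a tetraspanin, at 0.02 and Cldn11, which seals the sheath with tight junctions, at -0.54. None of these 4 passed the test, and Cldn11 was the only sheath gene with a negative difference.

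The connexin genes, of the gap junction family, both passed. Gjc3, a connexin of myelinating glia, had levels of 8.68, 8.87 and 8.16 in WT cerebellum and 7.71, 6.99 and 7.79 in WT hippocampus, with no overlap. The difference was 1.07 ± 0.29 (SE, limma adjusted p = 0.0133). Gjb1, the connexin mutated in an inherited neuropathy, differed by 0.98 ± 0.33 (SE, limma adjusted p = 0.0397). The Gjb1 call was lost under 8 of 21 alternatives, and that of Gjc3 under 2 of 21.

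Of the enzymes, Ugt8a, which makes galactosylceramide, Fa2h, which hydroxylates its fatty acids, and Gal3st1, which adds the sulfate, differed by 0.71, 0.59 and 0.46. Qdpr, a pteridine reductase, Aspa, which cleaves N-acetylaspartate, and the carbonic anhydrase Car2 differed by 0.55, 0.54 and 0.20. Their limma adjusted p ran from 0.0505 for Qdpr to 0.374 for Car2, so that none of these 6 passed in WT mice. Enpp6, a choline phosphodiesterase of newly forming oligodendrocytes, had a difference of -0.14 (95% interval -0.66 to 0.38).

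Of the receptors, Lpar1, a lysophosphatidic acid receptor, was higher in WT cerebellum by 0.80 ± 0.24 (SE, limma adjusted p = 0.0251). Gpr37, a G protein-coupled receptor of mature cells, differed by -0.02 (95% interval -0.48 to 0.44). Pdgfra, the growth factor receptor of the precursors, had levels of 10.01, 10.08 and 10.50 in WT cerebellum and 11.01, 10.97 and 11.24 in WT hippocampus. Every cerebellum array was below every hippocampus array, and the difference was -0.88 ± 0.17 (SE, limma adjusted p = 0.00221). Cspg4, the proteoglycan of the same cells, had levels of 9.77, 9.87 and 9.72 against 10.41, 10.64 and 10.55, again apart. It differed by -0.75 ± 0.18 (SE, limma adjusted p = 0.00779). Pdgfra and Cspg4 are also made by vascular and meningeal cells, and the 4 endothelial markers had a median difference of -0.17. Of these, Flt1 was higher in WT cerebellum by 0.63 (limma adjusted p = 0.0151), and the other 3, from -0.38 to -0.09, did not pass. The lists held no markers of other vascular cells or of meningeal cells, and the part of such cells was not tested. Gpr17, a receptor of committed precursors, had a value on 1 WT cerebellum array (13.18) because the spots on the others carried an outlier flag, and was not tested there. Its levels on the WT hippocampus arrays were 13.52, 13.80 and 13.98.

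**Figure D2:**
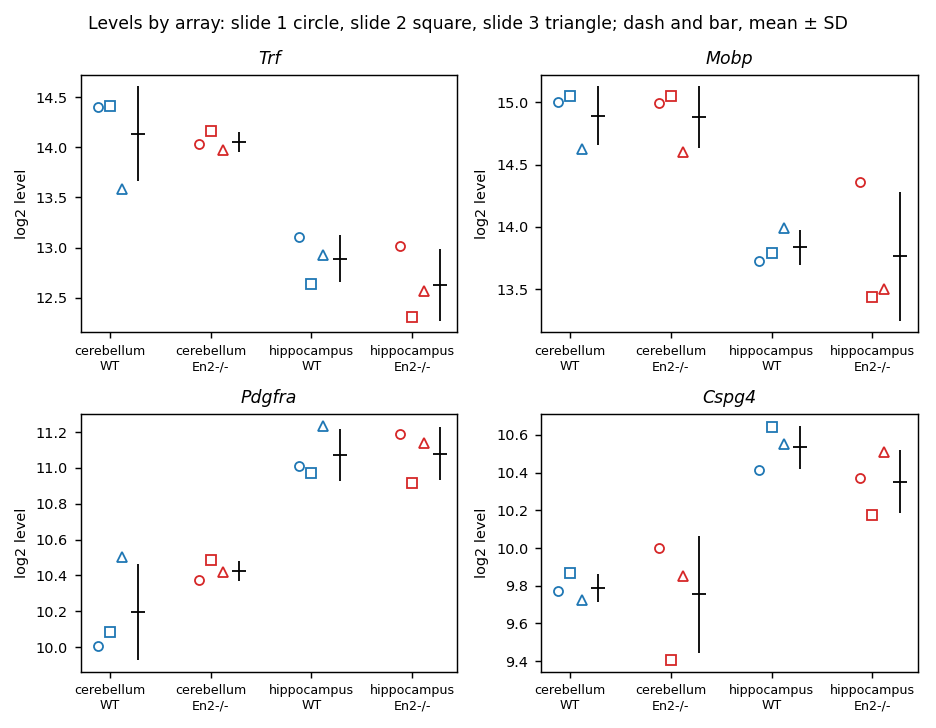
Levels of Trf, Mobp, Pdgfra and Cspg4 on the log2 scale on each of the 12 arrays, with the mean ± SD of each group beside them. Trf and Mobp are higher on all cerebellum arrays than on the hippocampus arrays of their genotype, and Pdgfra and Cspg4 lower.

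The transcription factors were divided. Nkx6-2, which acts late in differentiation, was higher in WT cerebellum by 0.93 ± 0.29 (SE, limma adjusted p = 0.0297), and Nkx2-2, which acts as precursors commit, by 0.65 ± 0.21 (SE, limma adjusted p = 0.0353). Olig2 had levels of 10.33, 10.46 and 9.75 in WT cerebellum and 10.53, 10.30 and 9.88 in WT hippocampus, which overlapped, and differed by -0.06 (95% interval -0.54 to 0.43). Sox10 had levels of 11.47, 11.33 and 10.84 against 11.53, 11.20 and 11.14, which also overlapped, and differed by -0.08 (95% interval -0.59 to 0.44). Olig1, the close relative of Olig2, and Sox8, that of Sox10, lay at -0.32 and -0.56 and did not pass, so that all 4 genes of the whole lineage had negative differences in WT mice. Of the others, Plekhh1, a pleckstrin homology protein, was higher in WT cerebellum by 0.87 ± 0.27 (SE, limma adjusted p = 0.0278). Ndrg1, needed for myelin upkeep in peripheral nerve, differed by 0.47, and Bcas1, a marker of early myelinating cells, by 0.17.

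The second comparison asked the same of En2-/- mice. Here 11 of 32 genes tested were higher in En2-/- cerebellum than in En2-/- hippocampus and 2 lower, against 12.9% and 14.3% of all 15491 genes tested. Trf, Gjc3, Mobp, Lpar1, Nkx2-2, Cspg4 and Pdgfra passed in both genotypes with the same sign. The 6 that passed only in En2-/- mice were Fa2h, Enpp6, Cnp, Ugt8a, Ndrg1 and Qdpr, and the 4 that passed only in WT mice were Gjb1, Nkx6-2, Plekhh1 and Mog. A test of the difference between the genotypes, given last, passed for none of these 10. The regions did not overlap for 17 genes higher in En2-/- cerebellum and 3 lower, while 21.6% and 23.8% of all genes did so. The mature genes had a median difference of 0.63 with 22 of 23 above 0, and the median over all genes was -0.02.

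Fa2h had the highest difference in En2-/- mice, with levels of 11.18, 11.17 and 11.09 in cerebellum and 9.65, 9.35 and 9.46 in hippocampus. The arrays lay far apart, by 1.65 ± 0.24 (SE, limma adjusted p = 0.000306). Enpp6 had levels of 6.68, 6.52 and 7.02 against 5.38, 5.06 and 5.48, also apart, and differed by 1.43 ± 0.24 (SE, limma adjusted p = 0.000731). Its WT groups had overlapped. Cnp, with levels of 14.41, 14.60 and 14.41 in En2-/- cerebellum and 13.80, 12.83 and 12.95 in En2-/- hippocampus, differed by 1.28 ± 0.38 (SE, limma adjusted p = 0.0253).

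Trf and Mobp differed by 1.43 and 1.12 in En2-/- mice, against 1.25 and 1.06 in WT mice. The Mobp levels were 14.99, 15.05 and 14.60 in cerebellum and 14.36, 13.44 and 13.50 in hippocampus, where replicate 1 was the highest. Mag, at 16.17, 16.02 and 15.68 against 15.81, 15.19 and 15.33, overlapped through that same hippocampus array and differed by 0.52 (limma adjusted p = 0.0866). The Mog levels were 9.91, 9.93 and 9.94 against 9.98, 9.16 and 9.12, with overlap, and differed by 0.51 (limma adjusted p = 0.189). Mbp, at 16.55, 16.69 and 16.61 against 16.24, 16.10 and 16.07, did not overlap and differed by 0.48 (limma adjusted p = 0.0732).

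On the precursor side, Pdgfra levels were 10.38, 10.49 and 10.42 in En2-/- cerebellum and 11.19, 10.91 and 11.14 in En2-/- hippocampus, with a difference of -0.65 ± 0.17 (SE, limma adjusted p = 0.0149). Cspg4 levels were 10.00, 9.41 and 9.85 against 10.37, 10.18 and 10.51, with a difference of -0.60 ± 0.18 (SE, limma adjusted p = 0.0287). Both were again lower in cerebellum with no overlap. Gpr17, at 13.82, 13.13 and 13.23 against 14.52, 13.42 and 13.72, overlapped and differed by -0.50 (limma adjusted p = 0.257). Olig2, at 10.04, 10.04 and 10.02 against 10.30, 9.91 and 10.05, and Sox10, at 11.39, 10.67 and 10.81 against 11.07, 10.71 and 10.68, overlapped as in WT mice.

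A wider set of 40 mature oligodendrocyte genes that are no members was also compared between the regions. Of the 39 on the array, 10 were higher and 1 lower in WT cerebellum, against 17.4% and 15% of all genes, with a median difference of 0.49. In En2-/- cerebellum 17 were higher and 1 lower, against 12.9% and 14.3% of all genes, with a median of 0.55. In WT mice the highest were Klk6, a serine protease, at 4.85 and Nipal4, a magnesium transporter, at 2.08. Tppp, which binds tubulin, was the single one lower, at -1.02. Of 20 further precursor genes, 19 on the array, 3 were higher and 2 lower in WT cerebellum, with a median of -0.10. The shares of all genes were the same 17.4% and 15%. Tcf7l2, a factor of newly formed oligodendrocytes that thalamic neurons also use, stood at 1.58 and Lhfpl3, a membrane protein gene of precursors, at 0.93, while Rlbp1, which binds retinaldehyde, at -1.73 and the transcription factor gene Sox5 at -1.03 were the lower ones. In En2-/- mice the highest and lowest mature genes were Klk6 at 4.31 and Tppp at -0.91, and the precursor genes ran from Rlbp1 at -1.41 to Zfp536 at 0.93 and Lhfpl3 at 1.34.

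**Figure D3:**
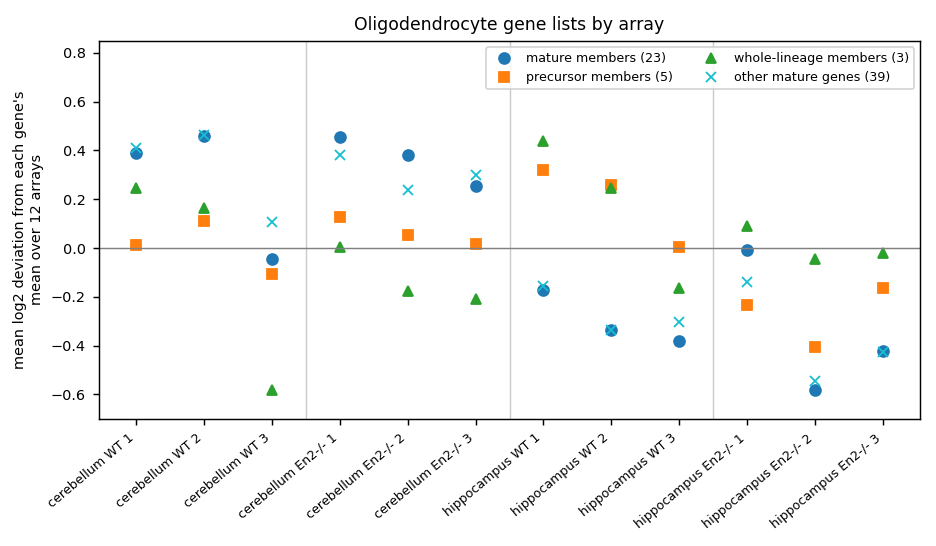
Mean deviation of 4 gene lists on each of the 12 arrays, on the log2 scale relative to each gene's mean over all arrays, with the number of genes in each list in brackets. Mature genes lie higher on the cerebellum arrays except WT replicate 3, which lies at the level of En2-/- hippocampus replicate 1.

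The counts between regions changed with the arrays included. Without WT cerebellum replicate 3 and En2-/- hippocampus replicate 1, an alternative chosen after the data were seen, 18 of 32 genes passed between the regions in WT and 18 of 32 in En2-/- mice. The median of the mature genes in WT mice was then 0.79. Both arrays stood apart by these same mature genes, so the larger counts and median are no added support. The share of all genes that passed without the 2 arrays is not given here. In WT mice 11 genes passed with all arrays, 6, 4, 7 and 6 without cerebellum replicate 1, cerebellum replicate 2, hippocampus replicate 1 and hippocampus replicate 2, and in En2-/- mice 13 passed with all arrays and 8 without cerebellum or hippocampus replicate 3. Within the slides, each of which held 1 array of each group, the median of the mature genes was 0.65, 0.84 and 0.31 on slides 1, 2 and 3 in WT mice and 0.45, 0.92 and 0.65 in En2-/- mice. It was thus above 0 on each slide in both genotypes, and lowest on the slides of the 2 arrays left out above. Purkinje and granule neuron markers on WT cerebellum replicate 3, at 2.92 and 2.69, were the highest of all arrays, and their part in the result was not tested.

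The third comparison set En2-/- against WT cerebellum. It shares its arrays with the comparisons between regions. The rank product scores how steadily a gene leads or trails the 9 ratios between arrays of the groups. At an uncorrected P under 0.01 by the rank product, the limit for cerebellum, Gjc3 was higher in En2-/- cerebellum and was the single gene called among 31 tested, while 2.36% of all 15606 genes were called higher. No gene of the set was called lower, against 2.65%. By limma 0 of 31 passed at an adjusted p under 0.05, against 0.66% of all genes, and 5 of 31 had an unadjusted p under 0.05, against 9.3% of all genes. The 23 mature genes had a median difference of 0.05, with 13 above 0, and the median over all genes was -0.03. Under scaling to the 75th percentile of each array the mature median was -0.03 with 8 above 0, and the median over all genes -0.08, so that the mature genes lay 0.08 above all genes with quantiles and 0.05 above them with the percentile. The genotypes did not overlap for 5 genes higher and 1 lower in En2-/- cerebellum, against 6.03% and 8.8% of all genes.

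Gjc3 levels were 8.68, 8.87 and 8.16 in WT and 9.84, 9.22 and 9.74 in En2-/- cerebellum. All En2-/- arrays were above all WT arrays, and the difference was 1.03 ± 0.26 (SE), 2.04-fold (rank product permutation P = 0.00203, limma adjusted p = 0.216). Within slides 1, 2 and 3 it was 1.15, 0.35 and 1.59. The call was lost without WT replicate 3, at a difference of 0.82, and without En2-/- replicate 1, at 0.91.

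**Figure D4:**
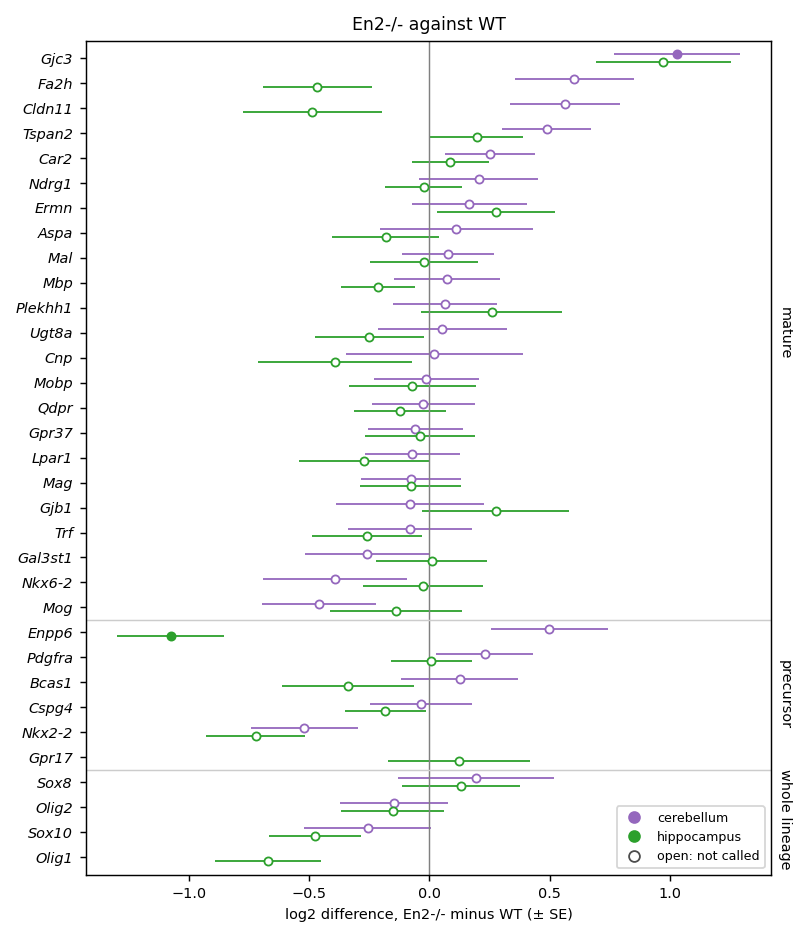
Difference between En2-/- and WT arrays of the 33 genes on the log2 scale (points, bars ± SE from limma), in cerebellum (purple) and hippocampus (green), with filled points where the rank product or limma called the gene. Gjc3 in cerebellum and Enpp6 in hippocampus are the 2 filled points. Olig1 and Gpr17 were not tested in cerebellum.

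The other genes whose groups were apart in cerebellum were Fa2h at 0.60, Cldn11 at 0.56, Tspan2 at 0.49 and Car2 at 0.25, and on the lower side Nkx2-2 at -0.52. Their limma adjusted p were 0.509, 0.504, 0.465, 0.777 and 0.529, and none was called by the rank product. No sheath gene was called. Mbp, Mag, Mobp and Cnp differed by 0.07, -0.08, -0.01 and 0.02, with 95% intervals of -0.44 to 0.58, -0.56 to 0.40, -0.51 to 0.49 and -0.83 to 0.87. Mog levels were near 9.9 on the 3 En2-/- arrays and on WT replicate 3, below the other WT arrays, and the difference was -0.46 ± 0.24 (SE, limma adjusted p = 0.631). The precursor genes Pdgfra, Cspg4, Bcas1 and Enpp6 differed by 0.23, -0.03, 0.13 and 0.50, and Olig2, Sox10 and Sox8 by -0.15, -0.26 and 0.19. None of these 7 was called. Olig1 had a value on 1 En2-/- cerebellum array (12.89), against 13.59, 13.66 and 12.25 in WT, and was not tested.

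The fourth comparison set En2-/- against WT hippocampus. At an uncorrected rank product P under 0.005, the limit for hippocampus, Enpp6 was lower in En2-/- hippocampus and was the single gene called among 33 tested, against 2.29% of all 14978 genes. No gene of the set was called higher, against 1.84%. By limma 0 of 33 passed, against 1.34% of all genes, and 5 of 33 had an unadjusted p under 0.05, against 19.5% of all genes. The mature genes had a median difference of -0.07 with 7 of 23 above 0, and the median over all genes was 0.05. Scaling to the 75th percentile gave 0.12 for the mature genes, with 14 above 0, and 0.12 for all genes, so that the sign of the mature median turned with the scaling. The genotypes did not overlap for 1 gene higher and 6 lower in En2-/- hippocampus, against 15.2% and 11.3% of all genes.

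Enpp6 levels were 6.77, 6.10 and 6.28 in WT and 5.38, 5.06 and 5.48 in En2-/- hippocampus. All En2-/- arrays were below all WT arrays, with a difference of -1.08 ± 0.22 (SE, rank product permutation P = 0.00208, limma adjusted p = 0.0712), which is 2.11-fold lower. Within slides 1, 2 and 3 it was -1.38, -1.04 and -0.80. After normexp background correction with an offset of 50 added to the intensities, the difference was -0.49 and was not called. An added offset shrinks log2 differences most at low intensities such as those of Enpp6, and its part was not tested. A second Enpp6 probe on chromosome 8 gave 0.42 in the same comparison, the opposite sign, and the mean of both probes gave -0.33, not called. The call was also lost without WT replicate 1, at -0.88, and without En2-/- replicate 2, at -0.95.

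**Figure D5:**
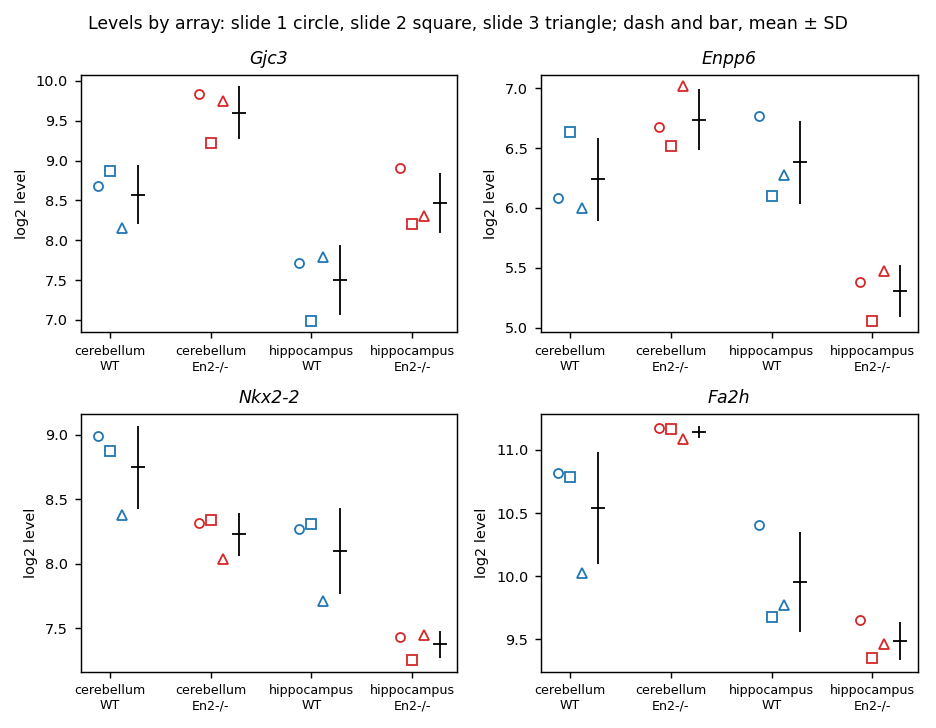
Levels of Gjc3, Enpp6, Nkx2-2 and Fa2h on the log2 scale on each of the 12 arrays, with the mean ± SD of each group beside them. Gjc3 is higher and Nkx2-2 lower on all En2-/- arrays than on the WT arrays of the same region, while Fa2h is higher in En2-/- cerebellum and lower in En2-/- hippocampus.

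Gjc3 was also higher on every En2-/- hippocampus array, at 8.90, 8.21 and 8.30 against 7.71, 6.99 and 7.79 in WT. The difference was 0.97 ± 0.28 (SE, rank product permutation P = 0.00664, limma adjusted p = 0.141), which missed the limit of 0.005 and was under the limit used for cerebellum. The difference between the 2 regional effects was 0.06 ± 0.40 (SE, limma adjusted p = 0.962, 95% interval -0.82 to 0.93). The Gjc3 probe lies on mm9 at chr5:138398715-138398774, about 110 Mb from the En2 probe on the same chromosome. Among the 50 other genes tested within 1 Mb of it in cerebellum, 8 were called higher and 8 lower by the rank product, or 32% against 5.01% of all genes, and in hippocampus 10 of 49, or 20.4% against 4.13%. Members Pdgfra and Qdpr also lie on chromosome 5, with probes that start at 75593888 and 45825687, and neither was called in either tissue. At that distance they do not bear on the stretch around Gjc3. The source of the calls in that stretch was not tested.

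The other genes apart in hippocampus all lay lower in En2-/- mice. They were Nkx2-2 at -0.72, Olig1 at -0.67, Sox10 at -0.47, Fa2h at -0.47 and Mbp at -0.22, with limma adjusted p of 0.137, 0.172, 0.229, 0.303 and 0.467. Nkx2-2 levels were 8.27, 8.31 and 7.71 in WT and 7.43, 7.25 and 7.45 in En2-/- hippocampus, and 8.99, 8.88 and 8.38 in WT and 8.31, 8.34 and 8.04 in En2-/- cerebellum. It was the one gene of the set lower on every En2-/- array in both regions, although neither test called it. Of all genes, 8.8% lay so in cerebellum and 11.3% in hippocampus, and the share in both was not computed. Mog, Mag, Mobp and Cnp differed in hippocampus by -0.14, -0.08, -0.07 and -0.39, and Pdgfra, Cspg4 and Gpr17 by 0.01, -0.18 and 0.12. The sheath values depended on the probe. Other probes, well above background on all arrays, gave -0.63 ± 0.35 (SE) for Mog and -0.80 ± 0.33 (SE) for Mag. For Mobp they gave -0.87 ± 0.20 and -1.05 ± 0.23 (SE), and Cnp had 1 probe. For Mbp they went both ways, at -0.623 ± 0.316 and 0.335 ± 0.255 (SE). Tspan2 and Mal had other probes at -0.517 ± 0.286 and -0.114 ± 0.179 (SE), against 0.196 and -0.022 for the probes used. The remaining genes, among them Aspa, Gal3st1, Lpar1, Mal, Ndrg1, Plekhh1 and Sox8, lay between -0.49 for Cldn11 and 0.28 for Ermn and Gjb1, and overlapped.

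Markers of other cell types differed between the groups as well. All 4 thalamus markers lay above 0 in En2-/- hippocampus with no overlap, with a median difference of 0.86 and a summed intensity of 9740 to 14700 against 6970 to 7430 in WT. None of the 4 was called by either test. The choroid plexus markers summed to 5320 to 104000 on the En2-/- and to 25500 to 60800 on the WT hippocampus arrays, and microglia markers to 14500 to 16100 against 18300 to 24100. The 4 endothelial markers had a median difference of -0.60 in hippocampus, and the rank product called 2 of them lower, against 2.29% of all genes. In cerebellum, choroid plexus markers summed to 25200 to 32000 in En2-/- and 19300 to 22900 in WT mice, and Purkinje markers to 81100 to 101000 against 119000 to 167000. Of the Schwann cell markers, Pmp2 was well above background on 0 of the 12 arrays. Prx was so on 3 WT and 2 En2-/- cerebellum arrays and on 1 hippocampus array of each genotype. Ncmap was so on all cerebellum arrays and on 2 hippocampus arrays of each genotype, and was higher in cerebellum by 2.40 ± 0.39 (SE) in WT (limma adjusted p = 0.000525) and 2.44 ± 0.39 (SE) in En2-/- mice (limma adjusted p = 0.000533). Between the genotypes in cerebellum Ncmap differed by 0.73 (limma adjusted p = 0.502). The part of these cells in the members' differences was not tested. Over all genes, the rank product called 2.36% higher and 2.65% lower in En2-/- cerebellum, and 1.84% and 2.29% in hippocampus. By limma 0.66% and 1.34% passed, so that few calls are to be looked for in short lists. Among the oligodendrocyte genes that are no members, 39 mature genes had 0 calls in either tissue, by either test. Of the 19 further precursor genes, Ptprz1, a receptor phosphatase, was called lower in En2-/- cerebellum at -0.86 ± 0.66 (SE, rank product permutation P = 0.00638), with overlapping arrays, and Tcf7l2 higher in En2-/- hippocampus at 1.39 ± 0.29 (SE, rank product permutation P = 0.000382).

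The last comparison tested whether the genotype difference itself differed between the regions. By limma 0 of 31 genes passed, against 0.116% of all 14698 genes tested, and 3 of 31 had an unadjusted p under 0.05, against 11.9% of all genes. These were Enpp6, whose difference was 1.57 ± 0.33 (SE) higher in cerebellum (limma adjusted p = 0.168), Fa2h at 1.07 ± 0.34 (SE, adjusted p = 0.334) and Cldn11 at 1.05 ± 0.38 (SE, adjusted p = 0.341). The Enpp6 value depended on the probe, since the second probe gave -0.25 and the mean of both 0.66. It was 0.75 after normexp with the offset of 50. The mature genes had a median of 0.10, against -0.09 over all genes.

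Probes of a gene did not always give the same sign. Of the 13 genes with more than 1 probe well above background on all arrays, the probes disagreed in sign for 8 in the cerebellum and 5 in the hippocampus genotype comparison, where most differences were small. Between the regions they disagreed for 5 genes in WT mice (Mal, Mbp, Mobp, Mog and Tspan2) and for Mbp alone in En2-/- mice. For Mobp the other probes gave 0.26 and -0.01 in WT mice, against 1.06 for the probe used, and 1.39 and 0.95 in En2-/- mice, against 1.12. For Cspg4, the other probe well above background on all arrays gave -0.76 in WT and -0.17 in En2-/- mice, the same sign as the probe used. A further Cspg4 probe was well above background on 1 of 12 arrays and is not read here. For Mbp the brightest probe gave 0.19 in WT mice and a probe 26826 bases upstream gave -0.35. In hippocampus the difference of the most upstream probe lay below that of the most downstream one for 9 of the same 13 genes (69.2%), against 53.9% of 5376 genes with such probes, with medians of -0.25 and -0.04. In cerebellum it did so for 61.5% of the 13, against 46.5% of all, and between the regions for 61.5% against 49.4% in WT and 38.5% against 43.2% in En2-/- mice. By array, as a median deviation from the mean over the 12 arrays, the 13 genes lay at -0.41 on WT cerebellum replicate 3, against 0.14 and 0.06 on the other WT cerebellum arrays, and from 0.05 to 0.19 and from -0.13 to -0.10 on the WT and En2-/- hippocampus arrays. All genes lay between -0.10 and 0.08 on every array. The part of RNA quality, to which such values are sensitive, in the members' differences was not tested.

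The mature genes varied together within groups. After the group means were removed, the 253 pairs of mature genes had a median Pearson correlation of 0.51 over the 12 arrays, and 87.7% of pairs were above 0, while mature genes against all 14135 genes that are no members had a median of -0.01. The 10 precursor pairs had a median of -0.10. All pairs share the same arrays, dissections and slides, and the correlations are a description of these arrays.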

How the data were processed

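RNA of 12 samples was hybridised to single-colour Agilent mouse arrays, and groups were taken from the labels. The deposited intensity values are the processed signals of Agilent Feature Extraction 10.7.3.1, background-corrected by the authors' scanner software. A deposited table holds the authors' log2 values, quantile normalized within each tissue, which served here as an alternative for the genotype comparisons only. Here log2 intensities were quantile normalized over the 12 arrays after control and outlier-flagged spots were removed, spots of a probe were averaged, and the probe with the highest mean stood for a gene. Genes were named by the annotation in the cerebellum files. A gene was tested if all 3 arrays of at least 1 group compared showed it well above background, with at least 2 values in each group, so that Olig1 and Gpr17 were left out where spots were flagged. The genotype comparisons used the rank product over 9 ratios (100 permutations within arrays, seed 1), where a missing value was set to its group mean, at P under 0.01 in cerebellum and 0.005 in hippocampus. They also used limma 3.58.1 (R 4.3.3) on the 6 arrays of the tissue. The region comparisons and the interaction used limma on all 12 arrays, with Benjamini-Hochberg adjustment over all genes tested. A Schwann cell marker and an oligodendrocyte gene are not reported here. The tests were checked on simulated data. Per-array values were given for 10 stage markers, for genes called between genotypes and for the most extreme of those called between regions, and Fa2h, Nkx2-2 and Olig1 were added after their values were seen. The members and gene lists were chosen with earlier results of these data known. The alternatives were background correction, normalization, probe choice, filters, limits, the slide as a block and leaving out single arrays. Normexp and the subtraction of local background each came with an offset of 50 added to the intensities. Nothing says whether the samples of a group were processed separately beyond coming from different mice, and the number of arrays limits the precision.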

Additional observations from a re-analysis of the deposited data

Results flagged for a closer look

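Fa2h, the fatty acid hydroxylase of myelin galactolipids, lay 0.60 higher in En2-/- than in WT cerebellum and was at -0.47 in hippocampus, on the log2 scale. It stands out because every En2-/- array lay above every WT array in cerebellum and below every WT array in hippocampus. Of all genes tested, 6.03% lay so in cerebellum and 11.3% in hippocampus, and the share that did both was not computed. The test of the difference between the regions gave 1.07 ± 0.34 (SE, limma adjusted p = 0.334), which did not pass, and neither comparison was called on its own.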

How the results depend on the processing

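Of 200 recomputed counts and medians, 169 stayed near the main value. For a count this meant within 1.5 times, and for a median a shift smaller than the spread between replicates. The sign of a median could still turn. The 169 include the limma counts for cerebellum and hippocampus genotypes and the interaction. These were 0 in the main run and under all 16, 16 and 22 alternatives, so the total is no measure of stability. The rank product count in hippocampus stayed near under 9 of 17 alternatives, and the precursor median in WT mice under 12 of 20. The mature medians between genotypes all stayed within that spread, and ran from -0.13 to 0.17 in cerebellum and from -0.24 to 0.12 in hippocampus. The replicate block was the slide, shared by same-numbered arrays, whose deviations correlated at -0.23 to 0.46 between groups. For arrays of different numbers the range was -0.515 to 0.381, which overlaps it. With the slide as a block, no count changed by over 1.5 times. The rank product still called 1 gene in each tissue, and limma 13 and 14 genes between regions in WT and En2-/- mice, against 11 and 13. The rank product count in cerebellum, 1, was 2 with the mean of all probes, 0 at a false-positive share under 0.05, and 0 to 1 on leaving out each array. In hippocampus, 1 became 0 with normexp, with local background subtracted, with the authors' values and at a false-positive share under 0.05. It became 2 when well above background was required on all arrays and at the limit of the other tissue, and was 0 to 1 on leaving out each array. Between regions in WT mice, the limma count was 3 with a log2 size of 1 or more, 4 to 15 on leaving out each array and 18 without the 2 arrays that stood apart. In En2-/- mice it was 7 and 8 to 16. The mature median in WT mice was 0.46 to 0.79 on leaving out each array, and 0.79 without those 2 arrays. The precursor median was -0.003 with normexp, -0.003 with background subtracted, -0.005 with the 75th percentile, -0.34 to 0.053 on leaving out each array and -0.02 without those 2. With the mean of probes, Enpp6 between regions in WT mice turned to 0.49 and Cspg4 in En2-/- mice to 0.08, the latter with a probe averaged in that was well above background on 1 of 12 arrays. Leaving out each array gave -0.34 to 0.05 for that Enpp6 difference and -0.15 to 0.31 for the Gjc3 interaction. Apart from the probes averaged and the arrays left out, the cause was not tested. The 75th percentile moved the all-gene interaction median from -0.09 to -0.20 and turned the mature one to -0.09. The authors' values were not run between regions, since each tissue was normalized by itself.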
